A study of Mus musculus with 6 samples.

Results

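The complement and coagulation genes are the components of complement and of the clotting system, with serpins left out, and 45 of them were taken by gene symbol from the 24411 symbols of the count tables. All 45 were in the tables, and 44 passed the low-count filter. The members were divided by the cell that is best known to make each product in liver, into 34 hepatocyte-made, 7 macrophage-made and 4 of another source. These classes come from textbook knowledge and were not measured here, and several products, such as C3, C1r and protein S, are made by more than one cell type.

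Livers were compared between 3 libraries labelled Cyr61 KO and 3 labelled Control. Per the labels, both groups were male mice 24 weeks old of the strain Cyr61fl/fl, which carries floxed alleles of Cyr61, after 12 weeks of a NASH (non-alcoholic steatohepatitis) diet. Cyr61 encodes a secreted matricellular protein. The labels give no Cre driver and no cell type in which the gene was removed, and they do not say whether each library came from its own mouse. P-values therefore measure spread among libraries, which may be technical.

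Complement is a cascade of plasma proteins that marks and lyses targets and recruits leukocytes. It starts from C1q bound to antibody or damaged surfaces, from lectins that bind sugars, or from spontaneous turnover of C3, and ends in the membrane attack complex. Coagulation is a parallel protease cascade that turns fibrinogen into fibrin, and plasmin dissolves the clot. Hepatocytes secrete most of these proteins into plasma, whereas C1q, properdin and the anaphylatoxin receptors are mainly products of macrophages and other myeloid cells.

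Control replicate 2 stood apart from the other libraries. It held 21032878 gene counts against 31133292 to 40377742 in the other 5, and 50.9% of its reads fell in genes against 82.8% to 87.6%. Malat1 was at 3738 CPM in Control replicate 2 against 56.5 to 128 CPM in the other 5 libraries. Dmbt1 had 33447 counts there against 4 to 16 counts. The summed level of 6 cholangiocyte markers was 80.5 to 157 CPM (counts per gene scaled to a common library size, with the TMM correction of edgeR for library composition) in Cyr61 KO libraries, against 1365 CPM in Control replicate 2 and 233 and 271 CPM in the other controls. Most of it was Spp1, also a marker of monocyte-derived macrophages, at 61.9 to 126 CPM in Cyr61 KO libraries. In Control replicates 1, 2 and 3 Spp1 was at 221, 1113 and 193 CPM. Krt19 of the same list was at 3.78 to 4.75 CPM in Cyr61 KO libraries, against 11.9, 88.6 and 9.10 CPM. The summed level of the 9 hepatocyte markers in the tables was 114852 to 134593 CPM in Cyr61 KO libraries, against 42897 CPM in Control replicate 2 and 99884 and 106319 CPM in the other controls. Ass1, one of these markers, had 3 to 6 counts in Cyr61 KO and 14 to 16 counts in Control libraries. That is too near the floor for its level or direction to be read, and whether its reads were lost in counting was not tested. Alb, the albumin gene, had 77118 to 90103 CPM in Cyr61 KO and 23799 to 66677 CPM in Control libraries. Cyr61 itself had 3.77, 2.66 and 3.14 CPM in the Cyr61 KO libraries 1, 2 and 3, against 15.6, 32.4 and 27.8 CPM in Control replicates 1, 2 and 3. Fold changes of the members named one by one are followed, where they moved, by their values without Control replicate 2.

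The 2 source classes stood on opposite sides of 0. All 7 macrophage-made members had a negative log2 fold change of Cyr61 KO over Control, at a median of -1.51, and 30 of the 34 hepatocyte-made members had a positive one, at a median of 0.24. Over all 13563 genes tested, 51.6% were negative and the median was -0.03. The difference between the classes was not tested. Of the 44 tested members, 1 was called lower and 0 higher at an adjusted p below 0.05 by the edgeR quasi-likelihood test, where 2.37% of all tested genes were called lower and 1.07% higher. The called member was C1qa. An unadjusted p under 0.05 was found for 6 macrophage-made and 4 hepatocyte-made members, against 27.4% of all tested genes, and DESeq2 called 5 members lower and 1 higher, against 10.2% and 6.53% of all tested genes. The hepatocyte-made median depended on Control replicate 2: without it the median was 0.03, with 21 of 34 positive, while the macrophage-made median was -1.17 with 0 of 7 positive and edgeR called 0 members in either direction, against 1.22% of all tested genes called lower and 0.923% higher. In that setting DESeq2 called 3 members lower, against 5.89% of all tested genes. Fewer cells of a type and less RNA per cell cannot be told apart in these bulk samples.

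**Figure D1:**
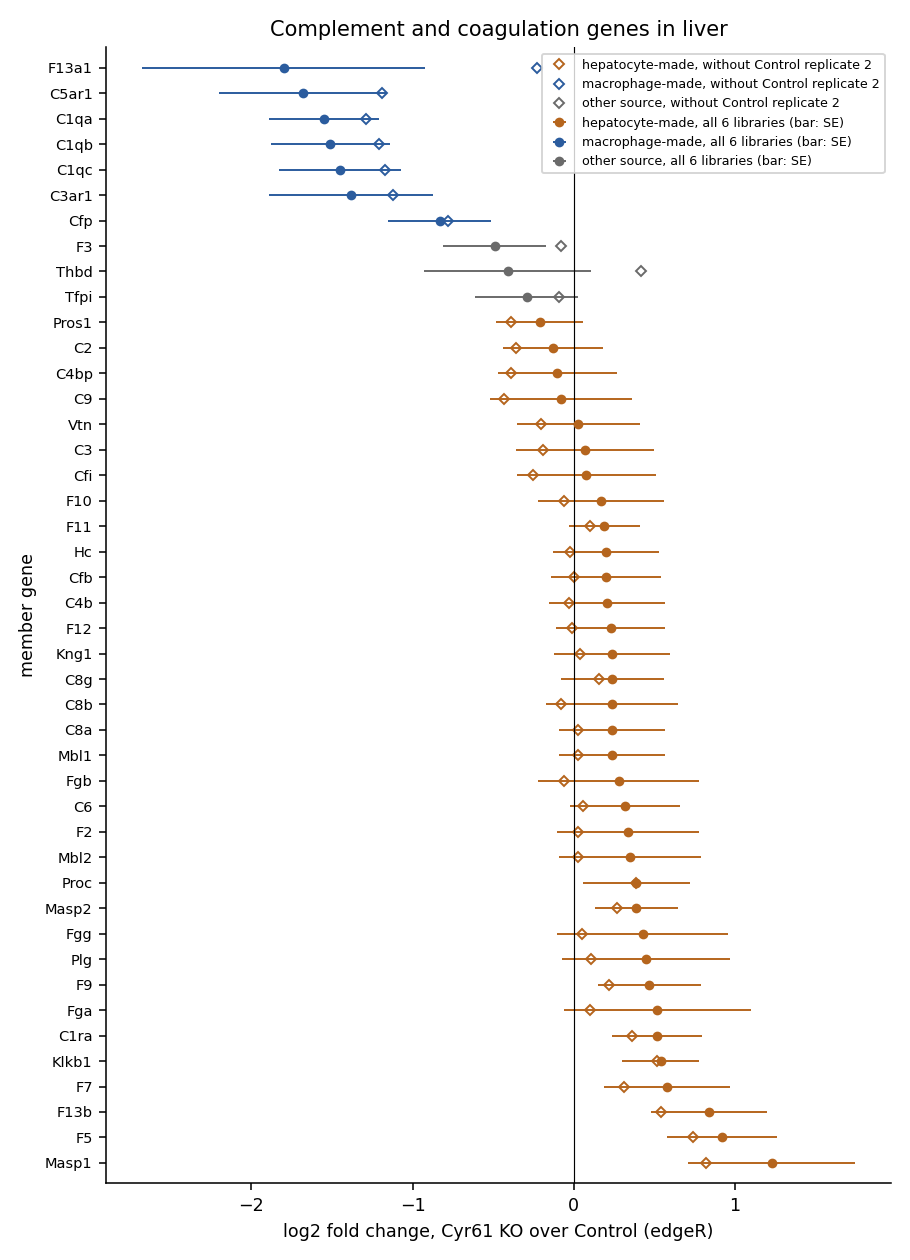
Log2 fold change of Cyr61 KO over Control for the 44 tested members (x axis) by gene (y axis), with filled points and standard error bars for all 6 libraries and open diamonds for the fit without Control replicate 2. The 7 macrophage-made members lie left of 0 in both fits, while hepatocyte-made points lie further left without that library, Proc excepted.

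C1q, the recognition molecule of the classical pathway, is assembled from the products of C1qa, C1qb and C1qc, and the 3 chain genes were lower together in Cyr61 KO livers. C1qa had 76.9, 42.5 and 96.6 CPM in the Cyr61 KO libraries 1, 2 and 3, against 182, 273 and 177 CPM in Control replicates 1, 2 and 3. C1qb was at 73.1, 41.7 and 103 CPM in Cyr61 KO livers, against 185, 279 and 155 CPM in Control livers. C1qc was at 57.9, 35.3 and 93.9 CPM in Cyr61 KO livers, against 155, 225 and 130.0 CPM in Control livers. In each of the 3 genes every Cyr61 KO library was below every Control library, Cyr61 KO replicate 2 was the lowest and Control replicate 2 the highest. Such a separation downwards was found in 17.9% of all tested genes. C1qa averaged 72.0 ± 27.4 CPM in Cyr61 KO and 211 ± 53.8 CPM in Control livers (SD, n = 3 libraries each). It was called lower, at a log2 fold change of -1.55 ± 0.34 (SE, edgeR adjusted p = 0.0483), which was -1.29 without Control replicate 2. C1qb at -1.51 ± 0.37 and C1qc at -1.45 ± 0.38 (-1.21 and -1.17 without Control replicate 2) missed the threshold (edgeR adjusted p = 0.0612 and 0.0686), while DESeq2 called all 3 (adjusted p = 3.28e-04, 0.00132 and 0.00283). The C1qa call is a marginal one: it was lost without either of Control replicates 1 and 2 and without either of Cyr61 KO replicates 1 and 2 (edgeR adjusted p = 0.0759, 0.0871, 0.111 and 0.196). It was also lost with library totals as the scaling (0.0796), and the log2 fold change lay between -1.80 and -1.26 over the 6 settings that leave out 1 library each. Over all alternatives the adjusted p ran from 0.000328 to 0.196 for C1qa, from 0.00132 to 0.224 for C1qb and from 0.00234 to 0.247 for C1qc.

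The genes for the chains lie side by side on the minus strand of chromosome 4 of GRCm38, the assembly of mm10: C1qb from 136880129 to 136886187, C1qc from 136889804 to 136893065 and C1qa from 136895917 to 136898803. Their balance differed little between libraries. The count of C1qb over that of C1qa was 0.951, 0.982 and 1.07 in Cyr61 KO replicates 1, 2 and 3 and 1.02, 1.02 and 0.879 in Control replicates 1, 2 and 3. That of C1qc over C1qa was 0.753 to 0.972 in Cyr61 KO libraries and 0.736 to 0.851 in Control libraries, so the ranges overlap in both ratios. Per kilobase of exon, the C1qa level was 40.8 to 92.9 CPM in Cyr61 KO and 170.0 to 262 CPM in Control livers, and that of C1qc 18.3 to 48.7 CPM in Cyr61 KO and 67.3 to 117 CPM in Control livers. C1ra encodes the protease that C1q activates and is made by hepatocytes. It was at 373, 355 and 320.0 CPM in Cyr61 KO livers against 259, 175 and 295 CPM in Control livers, with each Cyr61 KO library above all Control libraries, as in 17.3% of all tested genes. Its log2 fold change of 0.52 ± 0.28 did not pass (edgeR adjusted p = 0.250) and was 0.36 without Control replicate 2, and reads of C1ra and its close copy C1rb may not be fully separated.

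The sequences before the start sites of the chain genes are shown because these genes moved together, and the PU.1 motif searched for marks many myeloid genes. RefSeq promoters on GRCm38.p6 were matched for 35 of the 45 members, C1qb and C1qc among them, and the bases printed stop before the GENCODE M21 gene. Capitals mark a match to GAGGAAGT, the PU.1 motif, on either strand.
C1qb, chr4:136886201-136886450, minus strand: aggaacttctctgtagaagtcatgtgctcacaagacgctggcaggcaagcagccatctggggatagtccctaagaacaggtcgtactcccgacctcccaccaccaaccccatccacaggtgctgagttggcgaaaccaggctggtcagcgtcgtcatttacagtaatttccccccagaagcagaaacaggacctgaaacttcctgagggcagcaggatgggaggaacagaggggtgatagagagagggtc
C1qc, chr4:136893066-136893164, minus strand: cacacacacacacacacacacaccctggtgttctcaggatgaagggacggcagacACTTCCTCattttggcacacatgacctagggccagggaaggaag
The C1qc stretch holds 1 match, on the opposite strand, which starts 195 bases before the RefSeq start, and the C1qb stretch holds 0. Over the whole promoter, from 250 bases before to 50 bases after the start, the letters were found in 2 of 6 matched macrophage-made genes, C1qc and F13a1, in 0 of 26 hepatocyte-made genes and in 3.69% of all 27025 genes of the table. These are matches of letters and not measured sites.

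The other macrophage-made members were also lower on average, without passing the test. Cfp encodes properdin, which stabilises the alternative pathway convertase. It was at 35.1, 17.6 and 45.9 CPM in Cyr61 KO livers, against 60.1, 60.8 and 54.8 CPM in Control livers. The groups did not overlap, and the controls lay close together (log2 fold change -0.83 ± 0.32, edgeR adjusted p = 0.139, and -0.78 without Control replicate 2). C5ar1, the receptor of the anaphylatoxin C5a, was at 1.78, 1.06 and 3.67 CPM in Cyr61 KO livers, against 5.87, 10.9 and 4.30 CPM in Control livers. The groups did not overlap here either, and the log2 fold change was -1.68 ± 0.52 (edgeR adjusted p = 0.0934) and -1.19 without Control replicate 2. C3ar1, the receptor of C3a, was at 2.85, 3.69 and 11.7 CPM in Cyr61 KO livers, against 15.4, 20.7 and 11.4 CPM in Control livers. Cyr61 KO replicate 3 lay just above the lowest control, so the groups overlap (log2 fold change -1.38 ± 0.51, edgeR adjusted p = 0.130, and -1.12 without Control replicate 2). Without Cyr61 KO replicate 3 both receptors were called lower, C3ar1 at -2.26 and C5ar1 at -2.28 (edgeR adjusted p = 0.0142 and 0.0419), where 4.35% of all tested genes were called lower. Over all alternatives the adjusted p ran from 0.00642 to 0.371 for C3ar1 and from 0.00652 to 0.295 for C5ar1.

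F13a1 encodes the A subunit of factor XIII, the transglutaminase that crosslinks fibrin, and is made by monocytes and macrophages. It was at 0.178, 0.532 and 0.729 CPM in Cyr61 KO livers, against 0.590, 3.92 and 0.557 CPM in Control livers. Control replicate 2 alone was high, with 114 counts against 6 to 26 in the other 5 libraries. The log2 fold change of -1.80 ± 0.88 did not pass (edgeR adjusted p = 0.217), and without that library it was -0.23. Control replicate 2 was also the highest in the summed level of 5 platelet and megakaryocyte markers. That sum was 3.62 to 6.62 CPM in Cyr61 KO libraries, against 5.59, 17.3 and 6.47 CPM in Control replicates 1, 2 and 3. The part of platelets in the F13a1 values was not tested. Within the Cyr61 KO group, replicate 3 was the highest in all 7 macrophage-made members, and replicate 2 the lowest in 5 of them. Control replicate 2 was the highest of all 6 libraries in 7 of 7, against 34.9% of all tested genes.

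**Figure D2:**
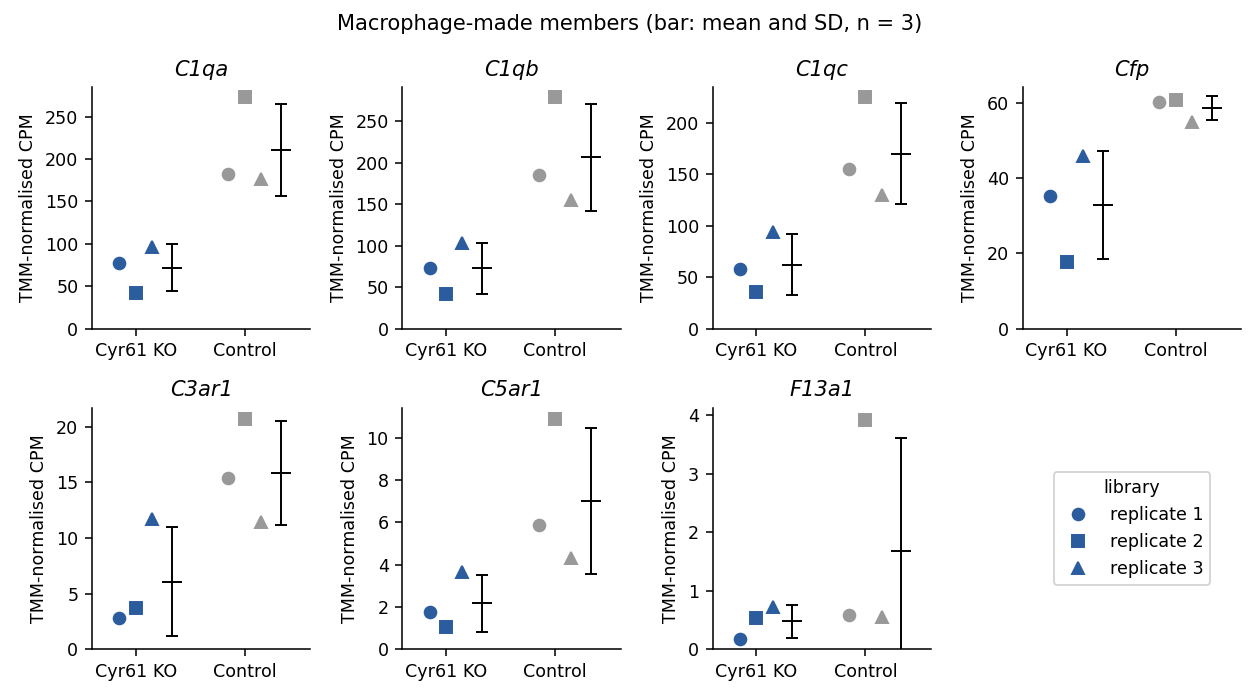
TMM-normalised CPM (y axis) of the 7 macrophage-made members in each Cyr61 KO and Control library (x axis), with the mean and SD of 3 libraries beside each group, cut at 0 for F13a1. The groups separate in C1qa, C1qb, C1qc, Cfp and C5ar1, overlap in C3ar1, and in F13a1 Control replicate 2 stands alone.

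Markers of several cell types other than hepatocytes were lower beside these members. Of 8 general macrophage markers 2, Lyz2 and Ctss, were called lower and 0 higher at a median log2 fold change of -1.66. The summed level of the 8 was 169 to 474 CPM in Cyr61 KO and 727 to 1303 CPM in Control libraries. Lyz2 and Ctss weighed most in it, at 546 and 264 CPM of the 1041 CPM in Control replicate 1. Cd14 and Aif1 were lower without overlap and were not called, while Adgre1, Cd68, Csf1r and Itgam overlapped between the groups. Of 8 markers of monocyte-derived macrophages 4 were called lower at a median of -2.97, with sums of 104 to 222 CPM in Cyr61 KO and 378 to 1449 CPM in Control libraries. Spp1, which is also a cholangiocyte marker, made up 1113 CPM of the highest sum. Over all tested genes 2.37% were called lower. Without Control replicate 2 the calls of Lyz2, Gpnmb and Itgax were lost (edgeR adjusted p = 0.0795, 0.0618 and 0.0716). Those of Ctss, Trem2 and Ms4a7 were kept (edgeR adjusted p = 0.0444, 0.0333 and 0.0405). Of 6 markers of Kupffer cells, the resident macrophages of liver, 0 were called by edgeR, at a median of 0.02 with members on both sides of 0. Timd4 stood at 1.58 with no overlap (edgeR adjusted p = 0.0627, DESeq2 adjusted p = 0.00246), Clec4f at 0.22, Marco at -0.33 and Cd5l at -0.78. The Kupffer cell sums were 190 to 547 CPM in Cyr61 KO and 393 to 535 CPM in Control libraries, so the groups overlap. Outside the macrophage lists, 2 of 4 tested neutrophil markers, 1 of 5 B and plasma cell markers, 0 of 5 T and NK cell markers and 3 of 6 stellate cell and fibroblast markers were called lower, at medians of -3.27, -2.05, -3.14 and -1.11. The summed levels of these 4 lists were 2.52 to 6.90, 3.80 to 4.35, 1.74 to 2.78 and 245 to 426 CPM in Cyr61 KO libraries, against 15.6 to 66.7, 10.9 to 54.3, 4.80 to 48.9 and 635 to 1111 CPM in Control libraries, with Control replicate 2 the highest in each. The part of any of these cell types in the C1q result was not tested.

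C1qa was also set against each listed macrophage gene within a library, where the scaling cancels, and the outcome depended on the gene taken. These ratios were added with the values already seen. Over 8 general macrophage markers, the C1qa ratio of the Cyr61 KO libraries lay below all Control libraries for 1, Csf1r, above them for 2, Lyz2 and Ctss, and overlapped for 5. Over 6 Kupffer cell markers it was lower without overlap for 4, Clec4f, Timd4, Vsig4 and Folr2, and overlapping for 2, Cd5l and Marco. Relative to Clec4f, a Kupffer cell lectin, C1qa stood at 0.548, 0.598 and 0.638 in Cyr61 KO libraries, against 1.64, 3.25 and 1.52 in Control libraries. Relative to Cd5l, a secreted protein of the same cells, it stood at 0.567, 0.514 and 0.366 in Cyr61 KO libraries, against 0.548, 1.14 and 0.688 in Control libraries. Relative to Lyz2, the myeloid lysozyme gene, it stood at 0.849, 0.799 and 0.536 in Cyr61 KO libraries, against 0.334, 0.464 and 0.514 in Control libraries.

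**Figure D3:**
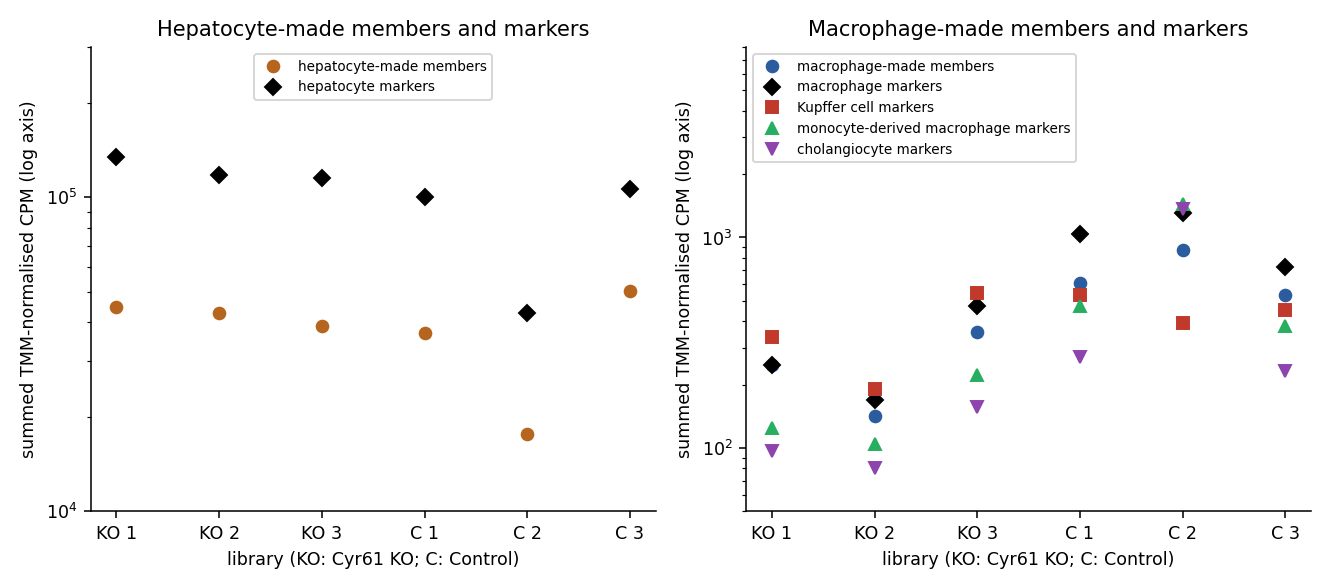
Summed TMM-normalised CPM (y axes, logarithmic) of hepatocyte-made members and hepatocyte markers (left) and of macrophage-made members and 4 lists of cell type markers (right) in each library (x axes). Control replicate 2 is lowest in both hepatocyte sums and highest in all right-hand sums other than that of Kupffer cell markers. Spp1 is counted in both the cholangiocyte and the monocyte-derived macrophage sums.

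The hepatocyte-made members carried nearly all reads of the family. They took 3.73%, 3.89% and 3.92% of the gene counts in Cyr61 KO replicates 1, 2 and 3, against 3.78%, 2.43% and 4.66% in Control replicates 1, 2 and 3, and the macrophage-made members took 0.0129% to 0.0358% in Cyr61 KO and 0.0495% to 0.121% in Control libraries. Per kilobase of exon and averaged over the 6 libraries, Fgg, Fga, Vtn, C3 and Fgb had the highest levels, at 1755, 1525, 1306, 1188 and 1105 CPM. Their ranges over the 6 libraries all overlapped. Fgg, for example, spanned 1722 to 2276 CPM per kilobase in Cyr61 KO and 528 to 2490 CPM in Control livers. C1qa and C1qb came at ranks 19 and 20 of the 45 members, and F13a1 and Cfd at the foot. Exon lengths are those of GENCODE M21, since the annotation that was counted is not given in the sources used here.

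Among the hepatocyte-made members 0 of 34 were called by edgeR, against 1.07% of all tested genes called higher and 2.37% lower. An unadjusted p under 0.05 in edgeR was found for 4, against 27.4% of all tested genes. F5 was the 1 gene called by DESeq2, which called 6.53% of all tested genes higher. Control replicate 2 was the lowest of the 6 libraries in 33 of the 34, Proc being the exception, against 33.3% of all tested genes. The median coefficient of variation of these members was 16.4% in the Cyr61 KO group and 37.8% in the Control group, and 16.4% in the Control group without replicate 2. Within the Cyr61 KO group, replicate 1 was the highest in 25 of the 34 and replicate 3 the lowest in 25. Low hepatocyte marker levels in Control replicate 2 moved with these values, as given above, and their part in the fold changes was not tested.

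**Figure D4:**
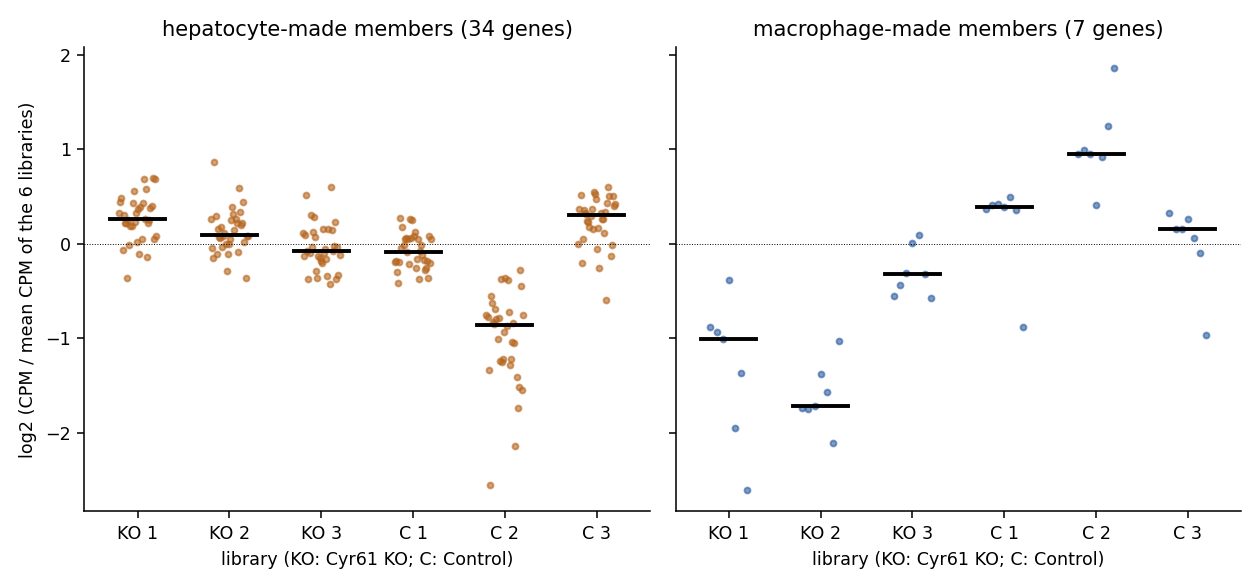
Level of each tested hepatocyte-made (left) and macrophage-made (right) member in each library (x axis), as log2 of its CPM over its mean CPM of the 6 libraries (y axis), with black lines for class medians. In Control replicate 2 the hepatocyte-made median is -0.86 and the macrophage-made median 0.95, while Cyr61 KO replicate 2 has the lowest macrophage-made median, -1.72.

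Fibrinogen, the clot-forming protein, is built from the chains encoded by Fga, Fgb and Fgg. Fga was at 5356, 5801 and 5067 CPM in Cyr61 KO livers, against 4064, 1040.3 and 6212 CPM in Control livers. Fgb was at 5026, 4843 and 3983 CPM in Cyr61 KO livers, against 3464, 1586 and 6370 CPM in Control livers. Fgg was at 4764, 4274 and 3604 CPM in Cyr61 KO livers, against 3085, 1105 and 5211 CPM in Control livers. In each chain gene the controls spread below and above all Cyr61 KO libraries. The log2 fold changes of Fga, Fgb and Fgg were 0.52 ± 0.58, 0.28 ± 0.50 and 0.43 ± 0.53 (SE, edgeR adjusted p = 0.578, 0.739 and 0.618), and 0.10, -0.06 and 0.05 without Control replicate 2. The count of Fga over that of Fgb was 1.07, 1.20 and 1.27 in Cyr61 KO replicates 1, 2 and 3 and 1.17, 0.656 and 0.975 in Control replicates 1, 2 and 3. The chains therefore did not keep 1 ratio in Control replicate 2.

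The chain genes share a locus on chromosome 3 of GRCm38, with Fgg from 83007724 to 83015049 and Fga from 83026076 to 83033627 on the plus strand and Fgb from 83040141 to 83049863 on the minus strand. Their upstream sequences are shown as the hepatocyte-made counterpart of those of C1q, since STAT and C/EBP factors act on acute phase genes of hepatocytes. Capitals mark TTCNNNGAA, the STAT motif, and TTGCNNAA, the C/EBP motif, on either strand, in RefSeq promoters on GRCm38.p6.
Fga, chr3:83025903-83026075, plus strand: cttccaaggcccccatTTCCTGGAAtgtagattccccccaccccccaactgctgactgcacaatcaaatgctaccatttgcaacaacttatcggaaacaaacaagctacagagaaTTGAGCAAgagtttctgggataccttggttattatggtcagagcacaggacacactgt
Fgb, chr3:83049864-83050113, minus strand: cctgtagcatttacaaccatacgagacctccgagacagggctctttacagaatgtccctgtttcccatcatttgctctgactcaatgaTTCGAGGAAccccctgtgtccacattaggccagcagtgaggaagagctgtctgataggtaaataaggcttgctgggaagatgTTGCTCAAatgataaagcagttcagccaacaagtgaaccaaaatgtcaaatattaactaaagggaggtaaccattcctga
Fgg, chr3:83007474-83007723, plus strand: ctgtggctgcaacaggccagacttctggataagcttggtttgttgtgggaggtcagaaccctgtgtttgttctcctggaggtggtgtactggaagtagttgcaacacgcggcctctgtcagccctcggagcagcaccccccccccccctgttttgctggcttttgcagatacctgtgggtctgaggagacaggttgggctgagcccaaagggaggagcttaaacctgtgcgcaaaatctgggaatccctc
Fga and Fgb hold 1 match to each motif, in that order from the 5′ end, and Fgg holds 0 of either. The motifs do not overlap each other in these stretches. Each motif was searched as 1 exact pattern of letters, and near matches were not counted. The pattern used for HNF1, given last here, was found in only 3 of all 32851 promoters of the table. A count of 0 members was therefore likely in advance and cannot show that these genes lack HNF1 sites. The same holds for HNF4, whose pattern was found in 156 of the 32851 promoters. Over the whole promoters, TTCNNNGAA was found in 8 of 26 hepatocyte-made genes, 0 of 6 macrophage-made genes and 9.55% of all genes of the table. TTGCNNAA was found in 8 of 26 hepatocyte-made genes, 0 of 6 macrophage-made genes and 12.2% of all genes. CAAAGTCCA, the HNF4 motif, and the HNF1 motif were found in 0 members of either class and in 0.555% and 0.0111% of all genes.

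In the lectin pathway, Mbl1 and Mbl2 encode mannose-binding lectins, and Masp1 and Masp2 the proteases that travel with them. Mbl1 was at 239, 171 and 161 CPM in Cyr61 KO livers, against 155, 103 and 227 CPM in Control livers. Mbl2 was at 545, 352 and 416 CPM in Cyr61 KO livers, against 317, 155 and 559 CPM in Control livers. Both lectin genes overlapped between the groups, at log2 fold changes of 0.24 ± 0.33 and 0.35 ± 0.44 (edgeR adjusted p = 0.656 and 0.628), and both were at 0.03 without Control replicate 2. Masp1 had the largest log2 fold change of the hepatocyte-made members. It was at 39.4, 75.3 and 58.8 CPM in Cyr61 KO livers, against 31.0, 7.02 and 35.8 CPM in Control livers. Every Cyr61 KO library was above every Control library, but the log2 fold change of 1.23 ± 0.52 did not pass (edgeR adjusted p = 0.167), and it was 0.82 without Control replicate 2. Masp2 was at 0.39 ± 0.26, and at 0.27 without that library.

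The convertase components and the terminal pathway lay close to 0. C3, on which all routes of activation converge, was at 4758, 6412 and 7565 CPM in Cyr61 KO livers, against 6928, 3383 and 7598 CPM in Control livers, a log2 fold change of 0.07 ± 0.43. C4b, whose fragment joins C2 in the classical and lectin convertase, was at 1725, 1659 and 1388 CPM in Cyr61 KO livers, against 1445, 835 and 1856 CPM in Control livers, a log2 fold change of 0.21 ± 0.36. The groups overlapped in both genes (edgeR adjusted p = 0.932 and 0.733), the values without Control replicate 2 were -0.19 and -0.03, and reads of C4b and its close copy C4a are uncertain to that extent. C2 and the alternative pathway gene Cfb stood at -0.13 and 0.20. The 6 terminal pathway genes, Hc (which encodes C5), C6, C8a, C8b, C8g and C9, ran from -0.08 for C9 to 0.32 for C6, and the inhibitors Cfi and C4bp were at 0.08 and -0.10. All 12 genes of these groups had Control replicate 2 as the lowest library. Without it C2 and Cfb were at -0.36 and 0.00, the terminal genes ran from -0.43 for C9 to 0.16 for C8g, and Cfi and C4bp were at -0.25 and -0.39.

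Among the clotting genes, the protease zymogens and the cofactor gene F5 had positive log2 fold changes without passing the test, and the size and in part the sign rested on Control replicate 2, their lowest library. F2, which encodes prothrombin, was at 2550 CPM, 2099 CPM and 1695 CPM in Cyr61 KO replicates 1, 2 and 3, against 1953, 777 and 2270.1 CPM in Control replicates 1, 2 and 3. The groups overlapped, and the log2 fold change was 0.34 ± 0.44 (edgeR adjusted p = 0.628) and 0.03 without Control replicate 2. F5, the cofactor of factor X in prothrombin activation, was at 297, 492 and 497 CPM in Cyr61 KO livers, against 303, 159 and 218 CPM in Control livers. Its groups overlapped through Cyr61 KO replicate 1 and Control replicate 1 alone, and the log2 fold change was 0.92 ± 0.34 (edgeR adjusted p = 0.128, DESeq2 adjusted p = 0.0303, and 0.0164 to 0.375 over all alternatives). Without Control replicate 2 it was 0.74. F7, F9 and F10 were at 0.58, 0.47 and 0.17, and at 0.31, 0.22 and -0.06 without that library. In the contact system, F11, F12, Klkb1 and Kng1 ran from 0.19 for F11 to 0.54 for Klkb1, and without that library from -0.01 for F12 to 0.52 for Klkb1. Reads of Kng1 and its close copy Kng2 may not be fully separated. F13b, the carrier subunit of factor XIII, was at 218, 224 and 193 CPM in Cyr61 KO livers, against 146, 57.7 and 151 CPM in Control livers, with no overlap (log2 fold change 0.84 ± 0.36, edgeR adjusted p = 0.172, and 0.54 without Control replicate 2). Together with C1ra, Masp1, Klkb1 and F9 it made up the 5 hepatocyte-made members that were above all Control libraries in every Cyr61 KO library. Such a separation upwards was found in 17.3% of all tested genes. Without Control replicate 2 the count that separated upwards was again 5, against 21.8% of all tested genes, and C2, C9, C4bp and Pros1 separated downwards, against 22.0%.

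Of the genes that limit or dissolve clots, Plg encodes plasminogen and was at 4358, 2858 and 2150.4 CPM in Cyr61 KO livers, against 2344, 928 and 3573 CPM in Control livers. The groups overlapped (log2 fold change 0.45 ± 0.52, edgeR adjusted p = 0.587, and 0.11 without Control replicate 2). Proc, which encodes protein C, and its cofactor gene Pros1 were at 0.39 and -0.21, and Vtn, which encodes the adhesive plasma protein vitronectin, at 0.03. Without that library Proc, Pros1 and Vtn were at 0.39, -0.39 and -0.20. The members of another source were low. F3, which encodes tissue factor, the trigger of clotting, was at 5.94 to 7.80 CPM in Cyr61 KO and 7.08 to 13.7 CPM in Control livers. The endothelial anticoagulant genes Thbd and Tfpi were at 4.15 to 8.30 CPM and 5.26 to 10.4 CPM in Cyr61 KO livers, and at 3.65 to 13.9 CPM and 7.64 to 11.2 CPM in Control livers. Control replicate 2 was the highest library in all 3, with log2 fold changes of -0.49, -0.41 and -0.29 that did not pass, and without it F3, Thbd and Tfpi were at -0.08, 0.42 and -0.09. Of 7 endothelial markers, 2 were called higher, Kdr and Clec4g, and 0 lower, against 1.07% and 2.37% of all tested genes. The others ran from -0.55 for Lyve1 to 0.48 for Stab2 without passing, and the list had sums of 163 to 239 CPM in Cyr61 KO and 114 to 196 CPM in Control libraries, and their part in the Thbd and Tfpi values was not tested. Cfd, the factor D gene that is known as an adipocyte product, had 1, 7 and 1 counts in Cyr61 KO replicates 1, 2 and 3, against 2, 3 and 0 counts in Control replicates 1, 2 and 3, and was the member not tested. The summed level of 6 adipocyte markers was 11.4 to 40.6 CPM in Cyr61 KO and 41.7 to 72.8 CPM in Control libraries. Of these genes Cidec and Fabp4, which are not confined to adipocytes, had 62 to 1141 and 203 to 1479 counts over the 6 libraries, Plin1, Adipoq and Retn had at most 7, 2 and 2 counts, and Lep had 0.

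Of 56 other genes of the same pathways, again without serpins, 49 were tested, and 1 was called higher and 2 lower by edgeR, against 1.07% and 2.37% of all tested genes, at a median log2 fold change of -0.07. Colec10, which encodes a collectin of the lectin pathway, was at 15.2, 22.5 and 28.3 CPM in Cyr61 KO livers, against 6.12, 6.20 and 8.35 CPM in Control livers. It rose without overlap (log2 fold change 1.67 ± 0.28, edgeR adjusted p = 0.0265), and was 1.63 without Control replicate 2. Plau, the gene of urokinase, which activates plasminogen, was at 2.55, 2.02 and 4.29 CPM in Cyr61 KO livers, against 9.0 to 14.5 CPM in Control livers, and fell without overlap (log2 fold change -2.04 ± 0.35, edgeR adjusted p = 0.0277). Itgax, a chain of complement receptor CR4 and a marker of myeloid cells, was at 1.81, 1.53 and 5.66 CPM in Cyr61 KO livers, against 18.8, 38.3 and 13.6 CPM in Control livers, a fall of the same kind (-2.96 ± 0.57, edgeR adjusted p = 0.0364). Plaur, the urokinase receptor gene, had the next lowest p and missed the threshold at -2.49 ± 0.59 (edgeR adjusted p = 0.0547). Without Control replicate 2 the Plau and Itgax calls were lost (edgeR adjusted p = 0.0538 and 0.0716, with ranges of 5.06e-06 to 0.119 and 3.8e-06 to 0.134 over all alternatives), and all 3 calls were lost without any 1 of Control replicate 1 and Cyr61 KO replicates 1 and 2.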

How the data were processed

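Liver RNA was sequenced as 3 Cyr61 KO and 3 Control libraries with a directional kit, per the labels. The authors deposited whole-number read counts per gene, 1 table per library with a column for either strand. Trimmomatic 0.38 and STAR 2.6.1a are named in the submitters' processing notes, with builds hg38 and mm10. Neither annotation nor settings were given in the sources used here. The reverse-strand counts were used, 21032878 to 40377742 per library. The opposite strand held 0.928% to 1.35% of stranded counts. The deposited table of the whole series equals the unstranded counts in 100% of its values. Reads outside genes made up 4.27% to 7.14% in 5 libraries and 25.7% in Control replicate 2. Multimapping reads, 3.74% to 19.4%, were not counted.

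The quasi-likelihood F test of edgeR 4.0.16 (R 4.3.3), two-sided, was run on the counts with a group term, after filterByExpr (minimum count 10, total 15) and TMM scaling. P-values were Benjamini-Hochberg adjusted over all 13563 genes, and an adjusted p below 0.05 was called. Standard errors are the size of the log2 fold change divided by the root of F. CPM were computed from the counts with the TMM factors. Alternatives used DESeq2 1.42.0, limma 3.58.1 voom, other scalings and filters, unstranded counts, a replicate block and each library left out, and DESeq2 without Control replicate 2 was added after seeing the data. The fits were tested on simulated data. The labels name no pairs, and libraries of equal replicate number did not deviate together. With 3 libraries per group this cannot exclude a shared batch. No 2 libraries agreed within sampling noise (chi-square per degree of freedom at least 58.0). Values are given for called members, all macrophage-made members, Fga, Fgb, Fgg, C3, C4b, Mbl1, Mbl2, F2, Plg and the 2 uncalled hepatocyte-made members of largest change. F13b, C1ra, F3, Thbd, Tfpi and Cfd were added after their values were seen. Of the other pathway genes the 4 of lowest p are named. The members and lists were chosen with earlier results of these data known.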

Additional observations from a re-analysis of the deposited data

How the results depend on the processing

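edgeR called 467 of 13563 tested genes. DESeq2 called 2273 of 13563, DESeq2 without Control replicate 2 called 1536 of 13647, and voom with quality weights called 4483 of 13563. With library totals only 50 of 13563 were called, and with no low-count filter 944 of 17887. Over all genes the median log2 fold change was -0.30 with library totals and -0.03 with TMM, and that of hepatocyte-made and macrophage-made members was then 0.04 and -1.83. Members called lower, 1 with edgeR and all macrophage-made, numbered 5, 3, 6, 0 and 3 in those 5 settings. Members called higher, 0 with edgeR and all hepatocyte-made, numbered 1 by DESeq2 and 4 by voom. Voom, with the most members called, also called the most genes of all those tested, so its larger counts show nothing particular to the members. The other pathway genes called lower, 2 with edgeR, numbered 8, 9, 11, 0 and 6, and 5 with the replicate block. Those called higher, 1 with edgeR, numbered 4, 4, 8 and 0 in the first 4 of these settings. Leaving out 1 library at a time gave 7 to 878 called genes, with 13647 to 13959 genes tested. In these settings 0 to 5 members were called lower, and 0 to 8 other pathway genes were called lower and 0 to 1 higher. Replicate numbers were shared by the groups, and the deviations of same-numbered libraries correlated at -0.062, -0.239 and -0.452. With 3 libraries per group these values cannot decide whether equal numbers share a batch. With the replicate block 633 genes were called and the member counts stayed at 1 lower and 0 higher. All 7 macrophage-made members were negative in every setting where they were tested, up to -0.23. No called member changed sign, while 18 uncalled members with log2 fold changes of at most 0.41 in size did so in at least 1 setting. F13a1 at 6 to 114 counts and Cfd at 0 to 7 are limited by depth.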

Other observations

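Fgl1, which encodes a fibrinogen-like protein secreted by hepatocytes, was high in 1 control library. It had 209, 163 and 121 CPM in the Cyr61 KO libraries 1, 2 and 3, against 209, 155 and 975 CPM in Control replicates 1, 2 and 3. The log2 fold change was -1.44 and did not pass (edgeR adjusted p = 0.187). The gene was chosen after its values were seen.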
